A study of Mus musculus with 6 samples.

Results

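Alpha-1-antitrypsin and its relatives were followed as a group of 10 serpin genes in mouse liver: the Serpina1 genes Serpina1a, Serpina1b, Serpina1c, Serpina1d and Serpina1e, the Serpina3 genes Serpina3g, Serpina3k, Serpina3m and Serpina3n, and Serpina6. They were picked by gene symbol, with earlier results of these data known. All 10 were found among the 18444 genes listed in at least 1 library. The files listed 15 further Serpina genes. Liver RNA was sequenced in 6 libraries, 1 per condition, from male mice labelled C57BL/6, C57BL/6J in the methods, whose age was given as 6 to 8 weeks. In the diet model, the SD library was labelled as a chow control, the HFD library came from the high-fat diet group, whose methods give 16 weeks of diet, and the HFD plus JT003 library came from mice on that diet that were also given JT003 at 500 μg/kg daily in the last 4 weeks. JT003 is a peptide agonist of both adiponectin receptors, AdipoR1 and AdipoR2. The HFD library was labelled as NASH, a name the study uses both for mice on the high-fat diet and for mice that also ate a methionine- and choline-deficient diet, and the sequenced diet groups are named as SD, HFD and HFD with JT003. In the fibrosis model, mice were injected every 3 days for 6 weeks with corn oil alone, or with 20% CCl4 in corn oil at 5 ml/kg. The CCl4 plus JT003 mice also received JT003 at 500 μg/kg daily for 3 weeks. The methods give 6 mice per group but do not say how many of them a library was made from. With 1 library per condition no difference had a replicate check, no p-value for a condition was computed, and the intervals below cover counting error only. In RNA of whole liver, fewer cells of a type and less RNA per cell cannot be told apart.

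Serpins are protease inhibitors that offer a flexible reactive centre loop as bait. The protease cuts the loop, the serpin snaps into a new fold, and both are trapped in a dead complex. Hepatocytes secrete alpha-1-antitrypsin as the main inhibitor of neutrophil elastase in blood, and its human deficiency causes lung and liver disease. Where humans have a single gene each for alpha-1-antitrypsin and alpha-1-antichymotrypsin, the mouse has a family of copies of both, the Serpina1 and Serpina3 genes. Serpina6 encodes corticosteroid-binding globulin, a serpin that carries glucocorticoids in plasma and does not act as an inhibitor.

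The Serpina1 copies were nearly the same in sequence, which bears on every single-gene value. The coding sequences of all 5 were 1242 bases long in the GENCODE transcripts matched to the files' RefSeq accessions, and pairs of them were 96.3% to 98.5% identical. Of the 1242 columns, 86 differed between at least 2 of the copies, or 6.92%. The 60-base stretch with the most differences held 18 such columns, or 30.0%, and lay at bases 1101 to 1160 of each coding sequence. It covers codons of the reactive centre loop, the part that decides which protease is caught. The stretches are shown because they are where the copies can best be told apart, with the columns that differ among the 5 in capitals.
Serpina1a: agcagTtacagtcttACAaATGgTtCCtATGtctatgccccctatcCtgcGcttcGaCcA
Serpina1b: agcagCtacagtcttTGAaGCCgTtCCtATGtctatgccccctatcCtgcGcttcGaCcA
Serpina1c: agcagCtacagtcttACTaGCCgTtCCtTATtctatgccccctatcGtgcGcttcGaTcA
Serpina1d: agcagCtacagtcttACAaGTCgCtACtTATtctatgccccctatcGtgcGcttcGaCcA
Serpina1e: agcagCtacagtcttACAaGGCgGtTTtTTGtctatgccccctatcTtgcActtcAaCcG

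Serpina1e was the copy with the most private bases: it alone differed from the other 4 in 17 columns, against 16 for Serpina1b, 15 for Serpina1d, 7 for Serpina1c and 6 for Serpina1a. How much of each transcript is unique was counted in windows of 50 bases that occur in no transcript of another gene. The share was 19.1% for Serpina1a and 25.8% for Serpina1c, the pair that shared most with each other. It was 49.1% for Serpina1d, 52.9% for Serpina1b and 62.1% for Serpina1e. The Serpina3 genes were better separated, with 80.9% for Serpina3m, 84.0% for Serpina3g, 86.0% for Serpina3k and 93.1% for Serpina3n, and Serpina6 reached 100%. Expected counts split a read that fits several genes between them, so levels of single Serpina1 genes, Serpina1a and Serpina1c above all, are uncertain, and sums over each family are given beside them.

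**Figure D1:**
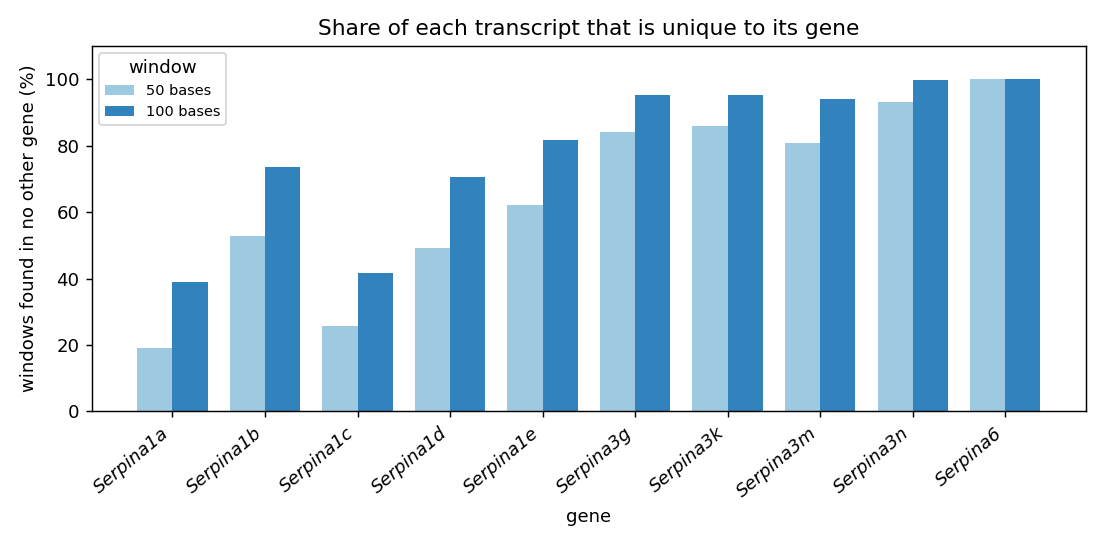
Share of each member's transcript that is unique to its gene, in percent of windows of 50 bases (light bars) and of 100 bases (dark bars) that occur in no transcript of another gene in GENCODE. Serpina1a is lowest, at 19.1% and 39.0%, and Serpina6 is at 100% in both.

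The members lie in 1 cluster on chromosome 12, where RefSeq orders them as Serpina6, then Serpina1b, Serpina1d, Serpina1a, Serpina1c and Serpina1e, and further on Serpina3g, Serpina3k, Serpina3m and Serpina3n, with other Serpina genes between these groups. Promoters of 7 of the 10 members were in the RefSeq table of GRCm38.p6: those of the 5 Serpina1 genes, Serpina3g and Serpina3n. The 250 bases before the annotated start are shown for Serpina1a, a copy whose FPKM varied less, and for Serpina1e, the copy that varied most, at chr12:103863620-103863869 and chr12:103956898-103957147 on the minus strand. They are shown also for Serpina3n, the acute-phase member, at chr12:104406458-104406707 on the plus strand. Capitals mark matches to the motifs searched on both strands: TTCNNNGAA for STAT, TTNNGCAA for C/EBP, GGGANTTCC for NF-kB and AGAACA for a glucocorticoid receptor half-site.
Serpina1a: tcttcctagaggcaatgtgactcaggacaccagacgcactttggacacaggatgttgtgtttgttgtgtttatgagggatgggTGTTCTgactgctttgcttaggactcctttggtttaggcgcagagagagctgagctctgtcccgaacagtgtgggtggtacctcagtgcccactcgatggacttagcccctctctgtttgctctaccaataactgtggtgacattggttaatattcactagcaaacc
Serpina1e: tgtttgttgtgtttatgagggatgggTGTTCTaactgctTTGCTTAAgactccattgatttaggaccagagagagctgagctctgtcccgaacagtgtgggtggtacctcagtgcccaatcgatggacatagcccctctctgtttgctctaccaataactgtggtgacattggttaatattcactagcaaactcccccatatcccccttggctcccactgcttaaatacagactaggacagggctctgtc
Serpina3n: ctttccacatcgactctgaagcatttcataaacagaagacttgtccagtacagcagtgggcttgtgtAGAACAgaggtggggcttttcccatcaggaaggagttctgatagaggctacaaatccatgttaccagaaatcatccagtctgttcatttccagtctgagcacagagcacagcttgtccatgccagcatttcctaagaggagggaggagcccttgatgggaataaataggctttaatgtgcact

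The annotated start of Serpina1e is placed further downstream than those of the other Serpina1 genes. Over the 189 to 200 columns where they overlap, the Serpina1e promoter was 95.3% to 97.0% identical to the other 4. Pairs of those 4 were 91.4% to 95.5% identical, so motif matches in these copies are not independent of each other. The C/EBP letters were in the promoters of Serpina1b, Serpina1d and Serpina1e, against 9.56% of the 32851 promoters in the table. The glucocorticoid receptor half-site was in all 5 Serpina1 promoters and in that of Serpina3n, against 16.1% of all promoters. The STAT letters were in that of Serpina3g, 33 bases before the start, against 7.02%, and the NF-kB letters were in none of the 7, against 1.43%. No match overlapped another, and a match of letters is a description and not a binding site.

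Of the 10 members, 6 were among the most abundant liver transcripts: the 5 Serpina1 genes and Serpina3k. By FPKM, the authors' measure of reads scaled for transcript length and library size, they ranked between 10 and 42 of all genes in every library. The other members ranked lower, from 159 for Serpina3n in HFD to 7947 for Serpina3g in CCl4. Together the 10 members took 3.19% to 5.11% of the reads of a library. The Serpina1 sum was highest of all in the 2 control livers, at 23041 FPKM in SD and 25642 in corn oil. It was 19336 in HFD against 19982 in HFD plus JT003, and 18682 in CCl4 against 16154 in CCl4 plus JT003. The Serpina3 sum had the same 2 libraries on top, with 8071 FPKM in SD and 8390.3 in corn oil, against 5782 in HFD, 5838 in HFD plus JT003, 4236 in CCl4 against 4626 in CCl4 plus JT003. Whether these gaps exceed the spread between mice was not tested, since each condition had 1 library.

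**Figure D2:**
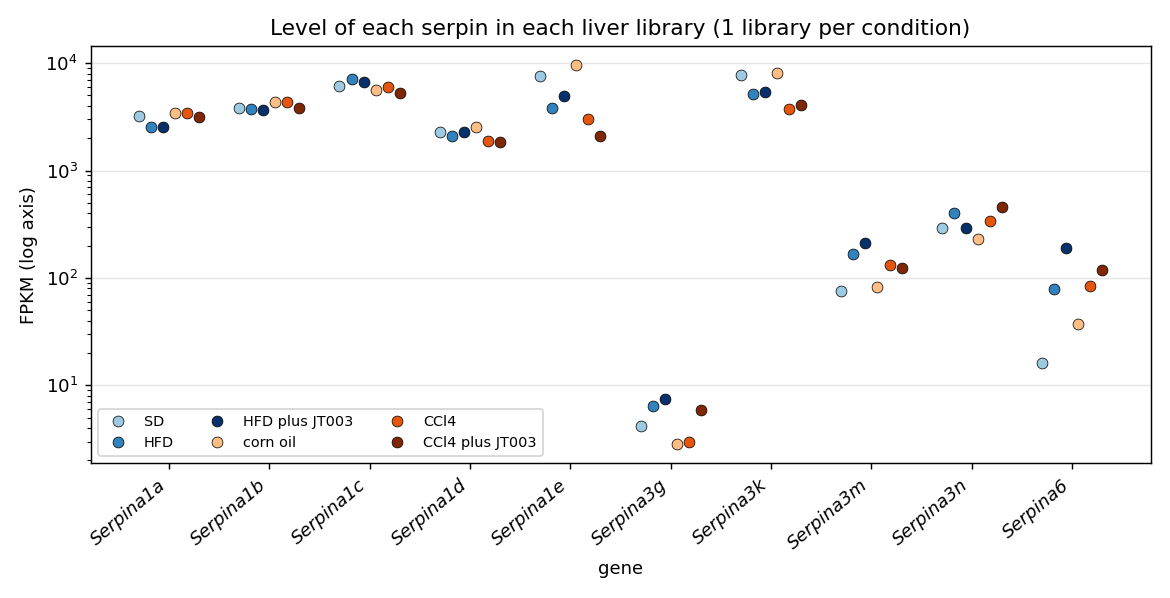
FPKM of each member (log axis) in the 6 libraries, 1 point per library, blue for the diet model and orange for the CCl4 model. Serpina1a to Serpina1d stay within 1.36-fold over the 6 libraries, while Serpina1e spans 4.56-fold, Serpina3k 2.14-fold and Serpina6 11.9-fold.

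Serpina1a to Serpina1d varied less in FPKM than the other members. The highest library was 1.36-fold over the lowest for Serpina1a, 1.21-fold for Serpina1b, 1.35-fold for Serpina1c and 1.36-fold for Serpina1d. Their FPKM ranged from 2549 to 3461, from 3636 to 4387, from 5229.7 to 7085 and from 1858 to 2520.5. Serpina1c was the 1 copy with its highest value in HFD, where the other 4 had theirs in corn oil. On the TMM scale the gaps were wider in the CCl4 model, where CCl4 plus JT003 over corn oil gave log2 ratios of -0.74 for Serpina1d, -0.50 for Serpina1b, -0.45 for Serpina1a and -0.42 for Serpina1c.

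Serpina1e was the copy that varied most, by 4.56-fold. Its FPKM was 7608 in SD, 3856 in HFD, 4915 in HFD plus JT003, 9625 in corn oil, 3008 in CCl4 against 2109 in CCl4 plus JT003. Both control livers were above the 4 other livers. As a share of the reads of the 5 copies, which no scaling between libraries can move, Serpina1e was 31.2% in SD, 18.8% in HFD against 23.2% in HFD plus JT003. In the other model it was 35.5% in corn oil, 15.0% in CCl4 against 12.1% in CCl4 plus JT003. The 95% binomial intervals (exact Clopper-Pearson) of neighbouring shares did not overlap, the closest pair being CCl4 plus JT003, with an upper limit of 12.2%, and CCl4, with a lower limit of 14.9%. At such high counts these intervals are narrow, and they leave out the splitting of shared reads and the spread between livers. In the CCl4 reads that the authors pooled beyond the CCl4 library, the Serpina1e share was 28.8%. Serpina1c made up 26.1% in SD, 35.8% in HFD, 32.4% in HFD plus JT003, 21.6% in corn oil, 30.8% in CCl4 against 31.1% in CCl4 plus JT003. Within each model its shares had the reverse order of those of Serpina1e, and so did the shares of Serpina1b. Those of Serpina1a and Serpina1d had it in the CCl4 model but not in the diet model. Shares of the same sum are tied to each other: where Serpina1e has less, the other copies as a set have more. The reverse order is therefore not a separate result for Serpina1c.

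**Figure D3:**
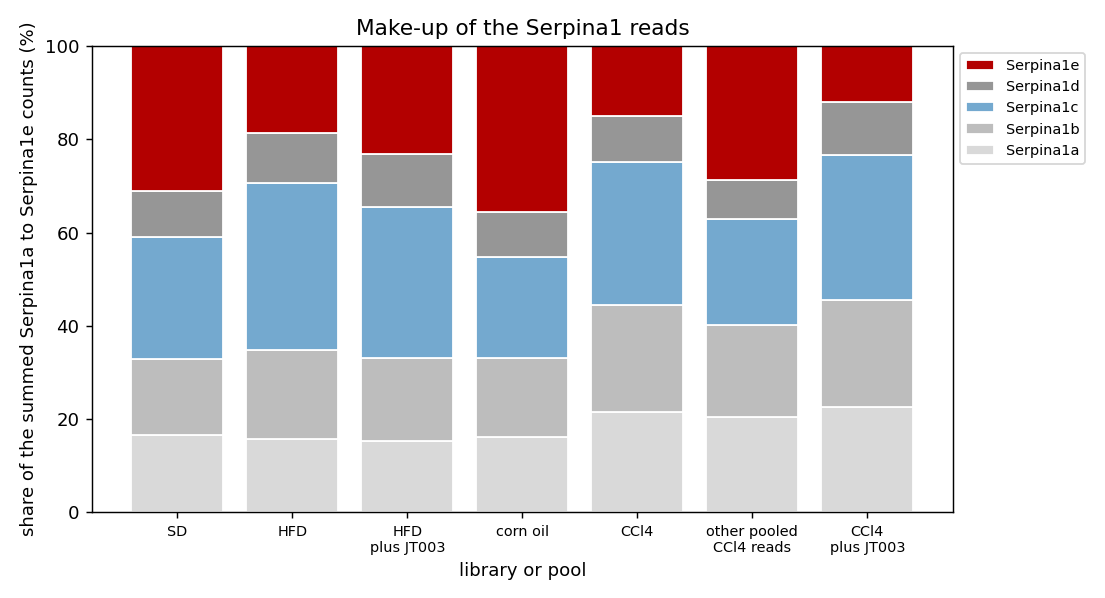
Share of each copy in the summed Serpina1a to Serpina1e counts (percent) in the 6 libraries and in the CCl4 reads that the authors pooled beyond the CCl4 library. Serpina1e (red) makes up 31.2% and 35.5% in the control livers SD and corn oil, 12.1% to 23.2% in the other 4 libraries, and 28.8% in the other pooled CCl4 reads.

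Serpina3k made up 85.0% to 95.5% of the Serpina3 reads. This gene encodes a contrapsin-type inhibitor secreted by hepatocytes. Its FPKM was 7698 in SD, 5205 in HFD, 5328 in HFD plus JT003, 8073 in corn oil, 3764 in CCl4 against 4039 in CCl4 plus JT003, again with both control livers on top. Serpina3n, an acute-phase serpin that inhibits granzyme B, was at 292 FPKM in SD, 404 in HFD, 290.2 in HFD plus JT003, 232 in corn oil, 336 in CCl4 against 459 in CCl4 plus JT003. Its lowest library was corn oil and its highest CCl4 plus JT003. Serpina3m was at 76.3 FPKM in SD, 167 in HFD, 212 in HFD plus JT003, 82.3 in corn oil, 133 in CCl4 against 123 in CCl4 plus JT003, so that both control livers were below the other 4. Serpina3g, an intracellular inhibitor of cathepsins known from lymphocytes and macrophages, was scarce, with 4.15, 6.43, 7.54, 2.82, 2.96 and 5.91 FPKM in the same order.

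For Serpina6, the FPKM was 16.1 in SD, 78.2 in HFD against 192 in HFD plus JT003. It was 37.3 in corn oil, 84.7 in CCl4 against 118 in CCl4 plus JT003. In both models the control liver was lowest and the JT003 liver highest. The 2 control livers differed from each other more in Serpina6 than in any other member, with corn oil at a log2 ratio of 1.30 over SD (interval 1.16 to 1.46), against -0.45 to 0.44 for the other 9. The 2 control livers came from separate models, so this gap cannot be told apart from the model.

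The question of the first comparison was what the high-fat diet did. In HFD over SD, Serpina6 and Serpina3m were past 2-fold higher and Serpina1e was past 2-fold lower, after scaling by edgeR's TMM factors within the model. These were 2 of 10 members higher, against 5.94% of the 13335 genes tested, and 1 of 10 lower, against 4.15%. All 10 members passed the minimum of 10 counts in all 4 comparisons. Serpina6 counts were 525 in SD and 2492 in HFD, a log2 ratio of 2.15 (2.02 to 2.29). Serpina3m counts were 2565 and 5501, a log2 ratio of 1.01 (0.94 to 1.08), so its interval included values short of 2-fold. Serpina1e counts were 209665 and 103980, a log2 ratio of -1.10, and scaled to total reads it was -0.98 and missed 2-fold. That scaling moved the median log2 ratio of all genes by 0.12.

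The other members differed less between HFD and SD. Serpina3k had a log2 ratio of -0.69, Serpina1a of -0.43, Serpina1d of -0.25 and Serpina1b of -0.16. Serpina1c was at 0.09, Serpina3n at 0.34 and Serpina3g at 0.50 (0.22 to 0.79), on 171 and 258 counts. The Serpina1 sum was at -0.37 and the Serpina3 sum at -0.59, where the median of all genes was 0.00.

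**Figure D4:**
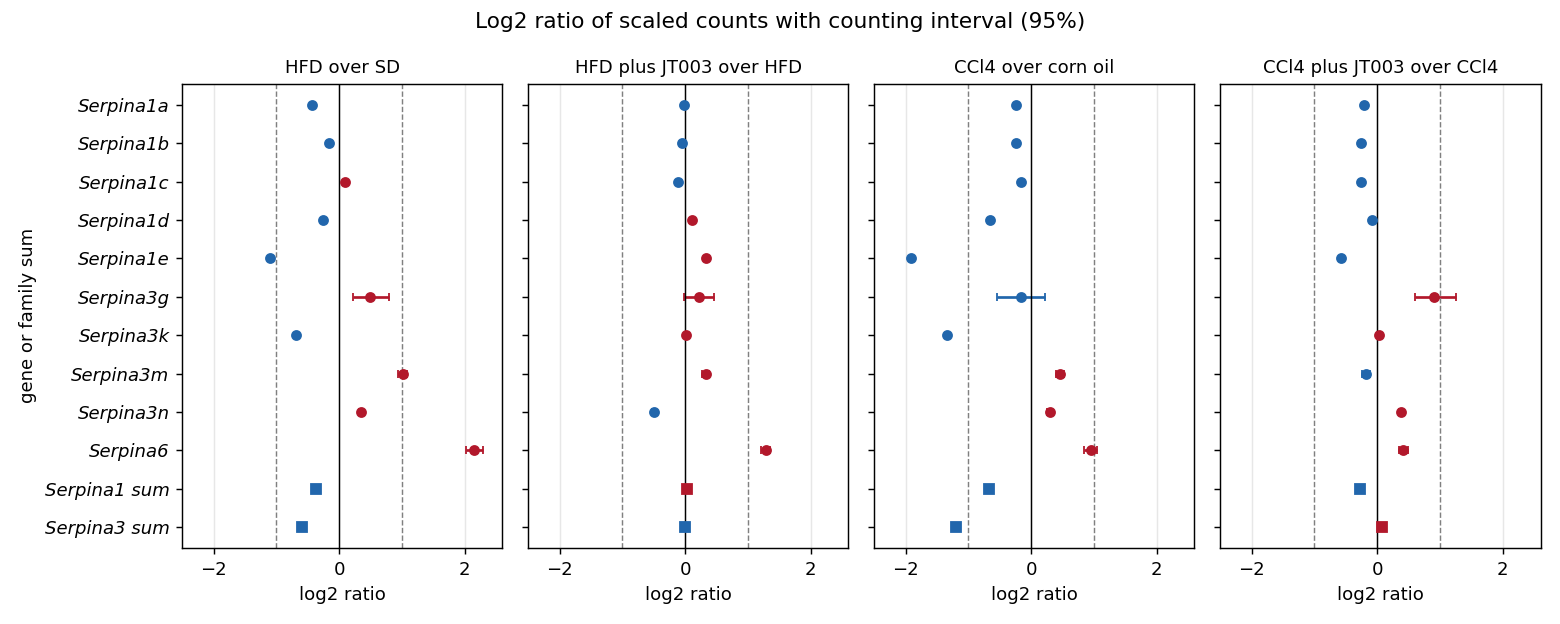
Log2 ratio of scaled counts of each member (circles) and of the family sums (squares) in the 4 comparisons, with 95% counting intervals, red for higher and blue for lower in the first-named library and dashed lines at 2-fold, where Serpina6 is to the right of 0 in all 4, at 2.15, 1.28, 0.94 and 0.42, and Serpina1e is to the left in 3 of 4, at -1.10, -1.92 and -0.58. Some ratios of Serpina1c, Serpina1d, Serpina3g, Serpina3k and the sums change sign with the scaling or the pooled CCl4 counts, and that of Serpina3n in CCl4 plus JT003 over CCl4 changes sign with the pooled counts.

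The next comparison asked what JT003 did on the diet. It shares the HFD library with the first. In HFD plus JT003 over HFD, Serpina6 was the 1 member past 2-fold, with 6149 against 2492 counts and a log2 ratio of 1.28 (1.21 to 1.35). This was 1 of 10 members higher, against 2.35% of the 13453 genes tested, and 0 of 10 lower, against 2.36%. Serpina3n was lower, with 12046 against 16666 counts and a log2 ratio of -0.49 (-0.52 to -0.46), and stood at -0.15 against SD. Serpina1e was at 0.33 over HFD, Serpina3m at 0.33 and Serpina3g at 0.22 (-0.03 to 0.46). The other 5 members lay between -0.12 and 0.11, and the sums of Serpina1 and Serpina3 at 0.03 and -0.01. Scaled to the summed hepatocyte markers, Serpina1d, Serpina3k and the Serpina1 sum turned from positive to negative here, at -0.08, -0.16 and -0.15, with the median of all genes moved by -0.18.

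The lowest ratios in CCl4 over corn oil were those of Serpina1e and Serpina3k. Serpina1e counts were 255873 in corn oil and 82817 in CCl4, a log2 ratio of -1.92 (-1.93 to -1.90). Serpina3k counts were 259211 and 125163, a log2 ratio of -1.34 (-1.35 to -1.33). These 2 of 10 members were past 2-fold lower, against 4.91% of the 13602 genes tested, and 0 of 10 were past 2-fold higher, against 8.76%.

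Serpina6 came next, with 1172 and 2757 counts and a log2 ratio of 0.94 (0.85 to 1.05). Scaled to total reads it was 1.18 and past 2-fold, and that scaling moved the median of all genes by 0.23. Serpina1d was at -0.66, Serpina1a at -0.25, Serpina1b at -0.24 and Serpina1c at -0.16, the last of which turned to 0.07 with total reads. At the highest of the alternative settings Serpina1a was at -0.008 and Serpina1b at -0.002. Serpina3m was at 0.46 (0.39 to 0.53), Serpina3n at 0.29 (0.25 to 0.33) and Serpina3g at -0.16 (-0.55 to 0.22), which turned to 0.07 with total reads. The Serpina1 sum was at -0.67 and the Serpina3 sum at -1.20. Past 1.5-fold were 1 member higher, against 16.7% of all genes tested, and 3 lower, against 12.4%.

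In CCl4 plus JT003 over CCl4, 0 of 10 members were past 2-fold in either direction, against 4.64% of the 13785 genes tested that were higher and 4.24% that were lower. The highest was Serpina3g, with 233 against 122 counts and a log2 ratio of 0.91 (0.60 to 1.25). Serpina6 was at 0.42 (0.35 to 0.49), on 3711 and 2757 counts. Serpina3n was at 0.38 (0.35 to 0.41), on 18601 and 14156 counts. Serpina1e was at -0.58 (-0.59 to -0.56), on 55852 and 82817 counts, and the 4 other Serpina1 copies lay between -0.26 and -0.09. Serpina3k was at 0.04 and Serpina3m at -0.18. The Serpina1 sum was at -0.27 and the Serpina3 sum at 0.07. Past 1.5-fold were 1 member higher, Serpina3g, against 13.3% of all genes tested, and 0 lower, against 11%.

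A second source of CCl4 reads gave other values for some members. The authors' table of CCl4 and CCl4 plus JT003 has a CCl4 column of expected counts that sums to 2.97 times the CCl4 library. Its values are at least those of the library for all but 24 genes, which fall short by 0.99 counts at most, so it was read as a pool that holds the library and other CCl4 reads. The other reads, the pool less the library, could not be split into samples. In them Serpina1e was at 8056 CPM, counts scaled by the library total alone, against 4109 in the library, a log2 ratio of library over the other reads of -0.97, or -0.89 with TMM factors. Serpina3n was at 1435 against 702, a ratio of -1.03, or -0.95 with TMM, and Serpina3g at 11.7 against 6.03, a ratio of -0.96, or -0.86 with TMM. Serpina3m was at 330 against 222, a ratio of -0.57, or -0.49 with TMM. Serpina6 was higher in the library, at 137 against 96.1, a ratio of 0.51, or 0.60 with TMM. The sums differed less, with ratios of -0.03 for Serpina1 and -0.09 for Serpina3, which were 0.06 and -0.00 with TMM.

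With the pooled counts in place of the library, Serpina1e was at -1.26 over corn oil and still past 2-fold lower, Serpina3n at 1.00, just short of 2-fold, Serpina3g at 0.47 and Serpina6 at 0.57. For CCl4 plus JT003 over the pooled counts, Serpina1e was at -1.24 and past 2-fold lower, Serpina3n turned to -0.33, Serpina3g was at 0.28 and Serpina6 at 0.78. Serpina1c and Serpina1d turned to 0.05 and 0.11. Serpina3k stayed past 2-fold lower than in corn oil, at -1.45 with the pooled counts against -1.34 with the library. The directions of Serpina3n, Serpina1c and Serpina1d with JT003 in CCl4 liver therefore depended on which CCl4 reads were used.

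**Figure D5:**
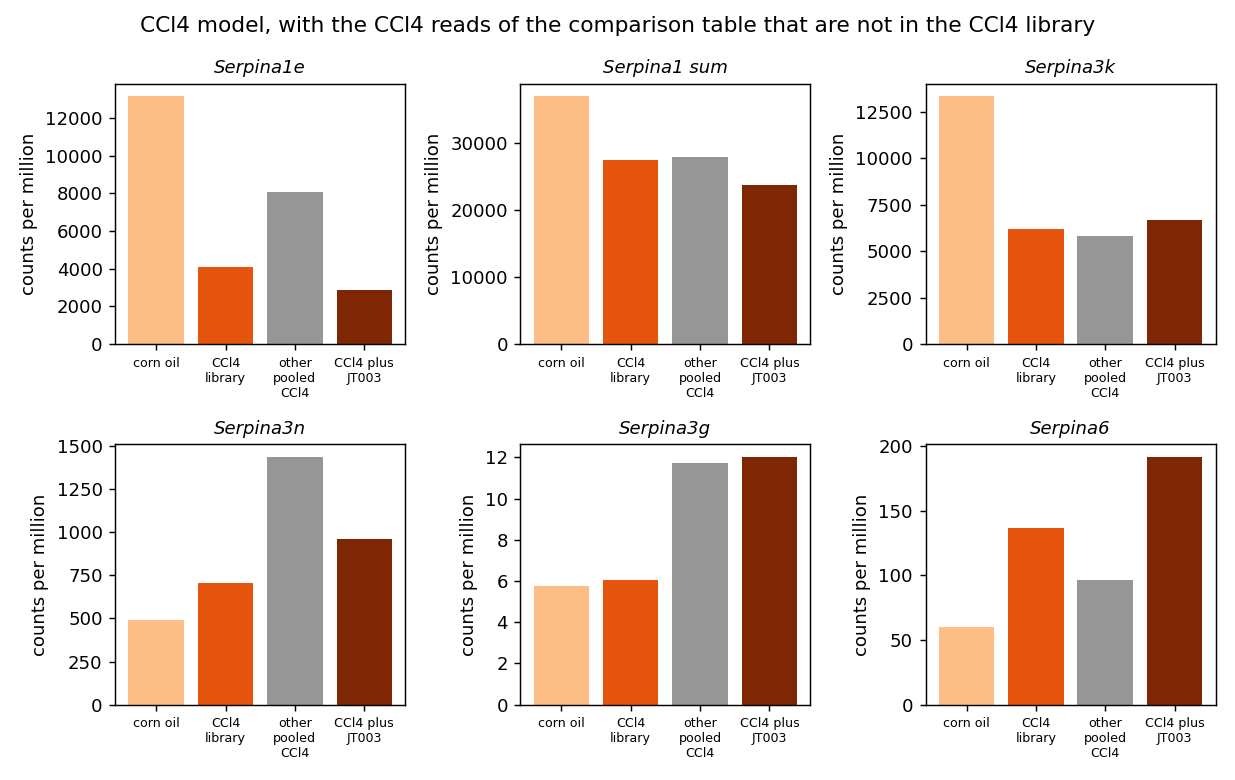
CPM, counts scaled by the library total alone, in corn oil, in the CCl4 library, in the other CCl4 reads of the authors' pool and in CCl4 plus JT003, for 5 members and the Serpina1 sum, each panel with its own axis from 0. Serpina1e is at 4109 in the CCl4 library and 8056 in the other pooled reads, and Serpina3n at 702 and 1435, while the Serpina1 sum and Serpina3k are close in both.

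Proteins of the acute phase, the plasma proteins that the liver makes more of in inflammation, were set beside Serpina3n. Counts in this and the later lists are to be read beside the shares of all genes given with each comparison above. In HFD over SD, 3 of 21 were past 2-fold higher and 0 lower, and Saa4 stood at 2.99 and Steap4 at 2.56. Most of the list went the other way, with 15 negative and 6 positive log2 ratios and a median of -0.23. In HFD plus JT003 over HFD, where Serpina3n was at -0.49, 1 was higher and 4 were lower, with a median of -0.55 and with Lcn2 at -1.53. In CCl4 over corn oil 4 were higher and 0 lower, with a median of 0.24, and Lcn2, an iron-binding protein of neutrophils and stressed hepatocytes, was at 3.41. In CCl4 plus JT003 over CCl4, where Serpina3n was at 0.38, 6 were higher and 0 lower, with a median of 0.23, and Lcn2 counts were 9725 against 2714. Over the pooled CCl4 counts Serpina3n was at -0.33, but this list and those below were compared with the CCl4 library alone.

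Genes of IL-6 and STAT3 signaling, which drive the acute phase in hepatocytes, were also set beside Serpina3n. In HFD over SD, 4 of 14 were past 2-fold higher and 0 lower, against 5.94% and 4.15% of all genes tested. The median was 0.38, with 13 positive log2 ratios and 1 negative. Among those higher were the receptor genes Il6ra at 1.09, Osmr at 1.02 and Il1r1 at 1.49. None of the 14 passed 2-fold in HFD plus JT003 over HFD, against 2.35% of all genes higher and 2.36% lower. The median there was -0.21. In CCl4 over corn oil Socs3, a feedback inhibitor of the pathway, was the 1 gene past 2-fold, at -1.09, with a median of -0.23 for the list. In CCl4 plus JT003 over CCl4 it was again the 1 gene past 2-fold, at 1.13, with a median of 0.36. Of all genes tested, 4.91% were past 2-fold lower in CCl4 over corn oil and 4.64% higher in CCl4 plus JT003 over CCl4.

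Interferon-inducible genes were set beside Serpina3g. In HFD over SD all 16 had a positive log2 ratio and 9 were past 2-fold higher, with a median of 1.08, where Serpina3g was at 0.50. The ratios were 2.16 for Ifit1, 1.95 for Gbp7 and 1.71 for Cxcl10. In HFD plus JT003 over HFD 1 of 16 was higher, Gbp2 at 1.27, with a median of 0.09. In CCl4 over corn oil none passed 2-fold and the median was -0.18, and in CCl4 plus JT003 over CCl4 3 were higher, with a median of 0.47, where Serpina3g was at 0.91.

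Glucocorticoid-responsive genes were set beside Serpina6, the carrier of these hormones. Of 14, 3 were past 2-fold higher and 1 lower in HFD over SD, with a median of 0.20. Tsc22d3 was at 1.42 and Igfbp1 at -3.24. In HFD plus JT003 over HFD 1 was higher, Igfbp1 at 1.29, with a median of 0.20. In CCl4 over corn oil 1 was higher and 3 were lower, with a median of -0.47, where Serpina6 was at 0.94. In CCl4 plus JT003 over CCl4 3 were higher and 1 was lower, with a median of 0.44, and Mt1, a metallothionein, was at 2.41.

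Factors that drive hepatocyte genes were mostly within 2-fold, as were most genes. None of 10 passed 2-fold in either diet comparison, with medians of 0.03 and -0.07. Of all genes tested, 5.94% were higher and 4.15% lower in HFD over SD. In HFD plus JT003 over HFD the shares were 2.35% and 2.36%. Onecut1 was the 1 factor past 2-fold in the CCl4 model, at -1.40 in CCl4 over corn oil and 1.44 in CCl4 plus JT003 over CCl4, where the list medians were -0.25 and -0.18. In CCl4 over corn oil Cebpa was at -0.78 and Foxa1 at -0.70, with 6 of the 10 factors negative and 4 positive. Of 14 genes that fold, sort or degrade alpha-1-antitrypsin in the secretory pathway, Syvn1, a ubiquitin ligase of the endoplasmic reticulum, was the 1 gene past 2-fold, at 1.46 in HFD over SD and -1.66 in HFD plus JT003 over HFD. None of them passed 2-fold in the CCl4 model, with medians of 0.10 and -0.26. Of the proteases that these serpins are known to meet, 12 of 14 were listed. Of those with enough counts, 2 of 8 were past 2-fold higher in HFD over SD, the scarce genes Elane and Prtn3. The same 2 of 8 were past 2-fold lower in HFD plus JT003 over HFD. The HFD library held 13 Elane counts, against 2 for SD and 1 with JT003 added. It held 72 Prtn3 counts, against 1 for SD and 6 with JT003 added. In CCl4 over corn oil 1 of 7 was higher, Ctss at 1.84, and in CCl4 plus JT003 over CCl4 1 of 7, Prtn3 at 2.80 on 117 and 15 counts. The elastase gene Elane had at most 13 counts in a library.

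Other things moved with Serpina1e and Serpina3k in CCl4 over corn oil. Of 10 male-biased liver genes, 9 were past 2-fold lower, with a median of -3.31, and their summed level was 16916 FPKM in corn oil, 4985 in CCl4 against 7965 in CCl4 plus JT003. In the diet model it was 20169 in SD, 22431 in HFD against 16391 in HFD plus JT003, and 1 of 10 was past 2-fold lower in HFD over SD and 1 higher. Of 11 hepatocyte markers listed, 1 was past 2-fold lower in CCl4 over corn oil, Hpd at -1.25, with a median of -0.28, and their summed level ranged from 58357 to 77410.4 FPKM over the 6 libraries. Of 9 macrophage markers, 7 were past 2-fold higher, with a median of 1.61 and summed levels of 41.3 FPKM in corn oil, 133 in CCl4 against 203 in CCl4 plus JT003. None of these 3 lists had a member at 0 in any library. Their part in the serpin values was not tested.

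Beyond the lists, the genes whose levels over the 6 libraries were most like those of a member were found by the root mean square difference of centred log2 scaled counts, among 9366 genes with a mean of at least 100 counts. For Serpina6 the nearest were Akr1d1, a steroid-reducing enzyme, at 0.18, and Slc16a12 at 0.38. Akr1d1 had 312 counts in SD, 1424 in HFD, 2815 in HFD plus JT003, 758 in corn oil, 1783 in CCl4 against 1951 in CCl4 plus JT003, the same order of libraries within each model as Serpina6. The 3 genes nearest to Serpina3n were Slc20a1, Usp36 and Rrp15, at 0.09 to 0.12. Nearest to Serpina3g were Myo9a, 2810474O19Rik and Tlr3, at 0.07 to 0.14, and nearest to the Serpina1 sum were Plekhb1, Decr2 and Xrcc3, at 0.07 to 0.08. These are descriptions over 6 libraries, out of 9366 genes compared.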

How the data were processed

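Liver RNA was sequenced on a BGISEQ-500 instrument in 6 libraries, 1 per condition. For each library the authors deposited an expected count per gene, an estimate of its reads without normalization, and an FPKM value, which the authors scaled for transcript length and library size. The submitters' processing notes name HISAT, Bowtie2, RSEM and the build mm9, with no roles. Of the expected counts above 0, 69.9% to 70.9% per library are exactly whole, with no tolerance. Values are given by gene symbol, and no coordinates of mm9 are used. The authors also deposited 4 comparison tables of their fold changes and p-values. Only the pooled CCl4 expected count of 1 table was used here, and 7 other expression columns were not.

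Expected counts were rounded to whole numbers, which summed to 19374236 to 20184557 per library, with 16083 to 16738 genes listed. Library sizes were scaled by TMM (edgeR 4.0.16, R 4.3.3) within each model. Log2 ratios used a prior count of 2, and each has a 95% Clopper-Pearson interval of the 2 counts, for counting error only. A gene was called past 2-fold among genes with at least 10 counts in 1 of the 2 libraries. There was no test of a condition. The calculation was tested on simulated data. Alternatives were total reads, DESeq2 1.42.0 size factors, TMM over 6 libraries, hepatocyte markers as the scale, minimum counts of 1 and 100, a prior count of 0.5, log2 of FPKM plus 1 or 0.1, 1.5-fold, a read test (exact conditional binomial, adjusted p under 0.001) and the pooled CCl4 counts.

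Members, gene lists and motifs were chosen with earlier results of these data known. All members are named, and up to 3 genes per list with the largest ratio among those with at least 100 counts. Not every gene that this rule allows is reported here. Elane, and Prtn3 in the diet model, are named outside it, chosen after their values were seen. Transcripts were GENCODE vM21 and promoters RefSeq (GRCm38.p6). Python 3.11.15 was used with numpy 2.4.6, pandas 2.3.3, scipy 1.17.1 and matplotlib 3.10.9.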

Additional observations from a re-analysis of the deposited data

Results flagged for a closer look

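Some members differed in direction between the models, with 1 library per condition, so that the differences were not tested. The log2 ratio of model over control was positive in the diet model and negative in the CCl4 model for Serpina1c, 0.25 apart (0.09 and -0.16), and the negative value turned positive with total reads. The log2 ratio with JT003 over the model alone had opposite signs in the 2 models for 4 members. Taken as the diet model minus the CCl4 model, it differed by 0.91 for Serpina1e, by 0.51 for Serpina3m, by 0.20 for Serpina1d and by -0.87 for Serpina3n. The signs for Serpina3n and Serpina1d in the CCl4 model turned with the pooled CCl4 counts, to -0.33 and 0.11, so that both models then had 1 sign.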

How the results depend on the processing

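No paired analysis was possible because each condition had 1 library, and no library could be left out. Of 390 alternative values of a log2 ratio, 17 changed sign, none of them of a ratio past 2-fold, and 6 moved by over 1.5 times, all 6 with the pooled CCl4 counts and all in Serpina1e, Serpina3g and Serpina3n. At 1.5-fold, 4 members were past the limit in CCl4 over corn oil, 1 higher and 3 lower, against 16.7% and 12.4% of all genes tested. In CCl4 plus JT003 over CCl4 1 member was past it, higher, against 13.3% of all genes tested. With the pooled CCl4 counts, 1 member was past 2-fold in CCl4 plus JT003 over CCl4, Serpina1e at -1.24. The other counts of members past 2-fold were within 1.5 times of those reported under every alternative run, although total reads and both FPKM scales dropped Serpina1e in HFD over SD and added Serpina6 in CCl4 over corn oil. For all genes, total reads gave 985 higher and 440 lower in HFD over SD, against 792 and 553, and 1652 and 447 in CCl4 over corn oil, against 1192 and 668. The hepatocyte markers as the scale gave 225 higher and 497 lower in HFD plus JT003 over HFD, against 316 and 317. Depth limits Serpina3g most, at 112 to 305 counts.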

Other observations

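Other Serpina genes also varied between the livers. Serpina7, which encodes the thyroxine-binding globulin and is not in the chromosome 12 cluster, had 498 counts in SD, 2420 in HFD against 1054 in HFD plus JT003, and 136 in corn oil, 494 in CCl4 against 853 in CCl4 plus JT003. It was past 2-fold higher in HFD over SD and in CCl4 over corn oil, at log2 ratios of 2.19 and 1.56, and past 2-fold lower in HFD plus JT003 over HFD, at -1.22, where Serpina6, the other hormone carrier, was higher. Serpina12, the adipokine vaspin, had 899, 1750 and 841 counts in the diet model, and 582, 356 and 277 in the CCl4 model. Serpina10, the protein Z-dependent inhibitor, had 2534 to 4566 counts and Serpina11 1491 to 2084. The pseudogene Serpina4-ps1 had 886, 4387 and 2940 counts in the diet model, and 1793, 75 and 596 in the CCl4 model, in the order control, model and model with JT003. Serpina3f had 29 to 105 counts, and each of the other Serpina genes listed had at most 43.

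Serpins of other clades were set beside the members. Of 11, 1 was past 2-fold higher in HFD over SD, against 5.94% of all genes tested. In HFD plus JT003 over HFD 3 were lower, against 2.36%. In CCl4 over corn oil 1 was higher and 1 lower, against 8.76% and 4.91%. In CCl4 plus JT003 over CCl4 1 was lower, against 4.24%. Serpinh1, the collagen chaperone, had 135 counts in SD, 468 in HFD against 213 in HFD plus JT003, and 177 in corn oil and 470 in CCl4.

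Of 9 markers of stellate cells and myofibroblasts, 4 were past 2-fold higher in HFD over SD and 4 lower in HFD plus JT003 over HFD, and 3 were higher in CCl4 over corn oil and 4 lower in CCl4 plus JT003 over CCl4. Of 6 cholangiocyte markers, 4 were past 2-fold higher in CCl4 over corn oil. Summed levels were 10.1 to 21.9 FPKM for neutrophil markers, 2.64 to 4.47 for lymphocyte markers, 26.6 to 87.4 for endothelial markers and 415 to 917 for red blood cell genes. Pancreatic acinar genes reached 0.62 FPKM at most. The adipocyte gene Cfd had 454 counts in HFD, 166 in HFD plus JT003 and 175 in corn oil, and 0 to 2 in the other 3 libraries. Female-biased liver genes summed to 18.6 to 49.4 FPKM. The part of these cells and genes in the serpin values was not tested.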
